A study of Capra hircus with 3 samples.

Results

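Cytosolic ribosomal protein genes encode the protein parts of the small and large ribosomal subunits. Here they are the genes whose symbol begins with RPL or RPS and a digit, plus RPLP0 to RPLP2 and RPSA, with the RPS6K kinases left out. The rule matched 30 of 27271 features in the deposited tables, of which 16616 carry a symbol. They comprise 12 of 46 listed large subunit genes, 12 of 31 listed small subunit genes, 4 paralogs or look-alikes (RPL3L, RPL10L, RPL26L1 and RPS19BP1) and 2 gene models that join a ribosomal protein gene to its neighbour (RPL17-C18orf32 and RPL36A-HNRNPH2). The remaining listed subunit genes, RPL5, RPL11, RPS6 and RPLP1 among them, had no feature under their symbol and were not analysed here, so every share below is a share of these 30 genes and not of all ribosomal protein messages. Features without a symbol held 42.2%, 41.5% and 35.5% of the UMIs (unique molecular identifiers, 1 per captured message) in E85, E105 and E125.

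A ribosome is assembled in the nucleolus from ribosomal RNA and one copy of most of these proteins, and cells that grow or divide spend much of their transcription on it. Messages of ribosomal proteins and of several translation factors carry a 5′ terminal oligopyrimidine tract, through which TOR signalling and LARP1 set their translation and stability together. A few genes have paralogs with restricted expression, among them RPL3L in striated muscle and RPL10L and RPL39L in the male germ line, where the partner copy lies on the X chromosome. Growing oocytes accumulate ribosomes and messages that are stored for the early embryo, and male germ cells of the fetal testis pass from division into arrest as gonocytes.

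Per the labels, the cells came from enzyme-digested testes of male goat fetuses (Capra hircus) at the embryonic stages E85, E105 and E125 and were profiled on the 10x Genomics droplet platform. There was 1 library per stage, so stage and library cannot be told apart, no test was made and no p-value is given. Neither a strain nor the number of fetuses per library is given in the sources used here. All intervals are exact 95% intervals for counting error alone. After filtering, 6328, 7069 and 7319 cells remained. Before filtering, each pair of libraries had 9 to 14 barcode sequences in common.

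Contents of the library labelled E125 went against its testis label. AMH, the Sertoli cell hormone, stood at 1365 and 3690.2 CPM (UMIs of the gene per 1000000 UMIs) over all barcodes in E85 and E105 and at 31.1 CPM there, while the oocyte genes ZP3 and FIGLA reached 2081 and 774 CPM there and at most 4.12 and 1.15 CPM in the others. Its germ-line cells met the oocyte markers (100 cells) and 0 met the male germ markers, and 508 cells met the pregranulosa markers against 2 for Sertoli cells. It is therefore called the library labelled E125 throughout. Each cell was assigned to a class from marker genes, and a class is called "-like" since only its RNA was seen. E85 and E105 gave 228 and 85 male germ-like cells. Somatic cells are the sum of all other named classes of the same library (3496, 4191 and 3124 cells). Left out of all classes were 451, 512 and 604 cells that met a gate without a clear lead over the next class, and 2153, 2281 and 3491 that met none.

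Ribosomal protein genes took a smaller share of the UMIs in germ-line cells than in the somatic cells of the same library. Male germ-like cells of E85 gave 9.97% of their UMIs to these genes, against 13.1% in somatic cells, a ratio of 0.759 (0.756 to 0.761, log2 -0.40). At E105 it was 7.25% against 12.4%, a ratio of 0.586 (0.583 to 0.589, log2 -0.77). Oocyte-like cells of the library labelled E125 had 10.0% against 12.2%, a ratio of 0.820 (0.818 to 0.822, log2 -0.29). The male germ-like cells at E105 held the lowest share of all 22 class and library sums. The highest shares were those of lymphoid-like cells, 15.1% and 16.3%.

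The ranges of single cells overlapped, but most male germ-like cells lay below most Sertoli-like cells. Of male germ-like cells, 91.7% at E85 and 98.8% at E105 lay below the median Sertoli-like cell of their library, and 52.6% and 77.6% below the median macrophage-like cell. Of Sertoli-like cells, 3.22% and 5.34% lay below the median male germ-like cell. Of 100 oocyte-like cells, 95 lay below the median pregranulosa-like cell (13.4%) and 44 below the median macrophage-like cell (9.58%). The oocyte-like share was thus below those of the follicular and stromal classes and close to those of macrophage-like (10.3%) and endothelial-like cells (10.3%).

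**Figure D1:**
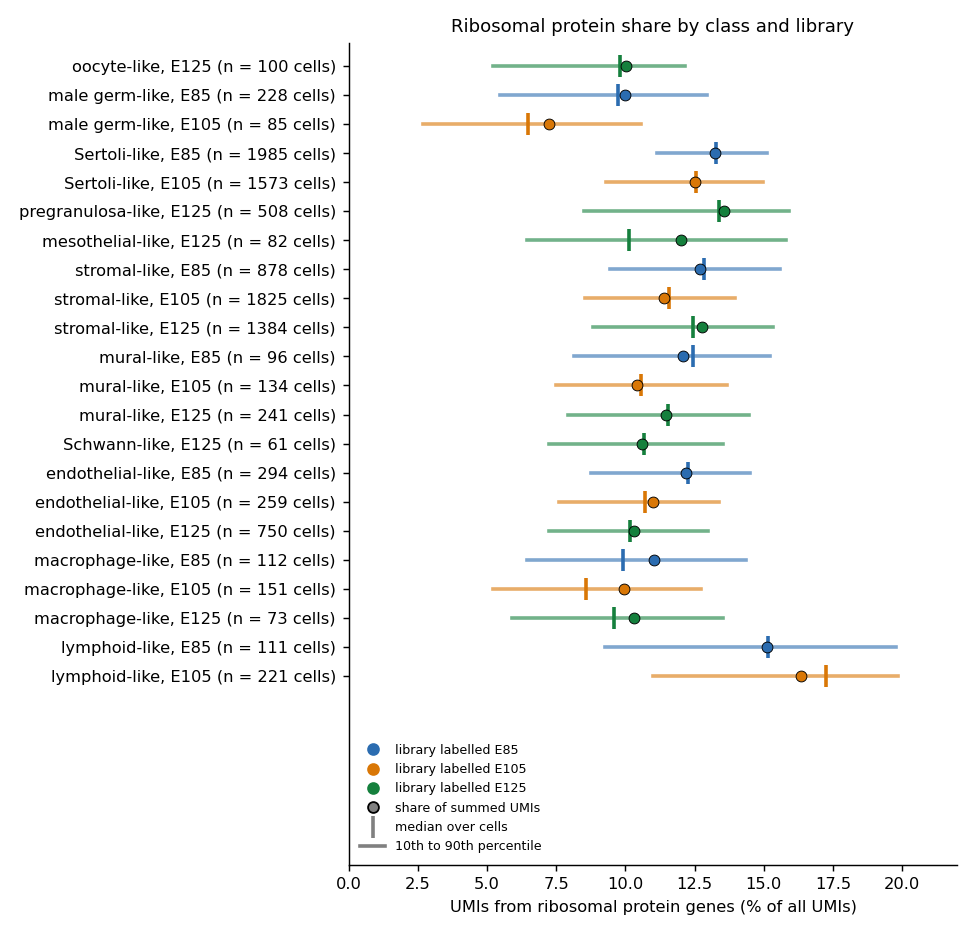
Share of UMIs from the 30 ribosomal protein genes in each class of cells, by library. Dots give the share of summed UMIs, ticks the median over cells and lines the 10th to 90th percentile; male germ-like cells at E105 sit lowest (7.25%) and lymphoid-like cells highest (15.1% and 16.3%).

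A lower share did not mean fewer ribosomal protein UMIs per cell, since germ-line cells held more UMIs in all. The median male germ-like cell held 2005 ribosomal protein UMIs at E85 and 1310 at E105, against 1392 and 1304 in Sertoli-like cells and 264 and 259 in stromal-like cells. The median oocyte-like cell held 11168, with a total of 107252 UMIs, against 1270 of 9062 in pregranulosa-like cells. Oocyte-like cells varied widely in depth. The 34 shallowest had a median of 5159.5 UMIs and a share of 8.51%. The next 33 and the deepest 33 had medians of 107621 and 184179 UMIs and a share of 10.1% each, so the summed values rest mostly on these. Among cells with at least 10000 UMIs, a limit set after seeing the data, the germ-line shares were 10.2% at E85, 7.47% at E105 and 10.0% in oocyte-like cells. Somatic cells above the same limit had 13.3%, 12.7% and 12.5%, so a gap of similar size remained. Of these somatic cells, 1103 of 1170 at E85 and 825 of 911 at E105 were Sertoli-like. The limit is only a lower bound and does not match the depth of oocyte-like and somatic cells, so the part of depth was not tested.

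Scaling matters for the male germ-like cells, in which most features stood higher relative to the total. The median log2 ratio of all features tested was 0.69 at E85 and 0.64 at E105 on the scale of total UMIs, and -0.10 in oocyte-like cells. TMM factors, which centre the bulk of the features, shifted the ratios by 0.95 and 1.02 in male germ-like cells and by 0.09 in oocyte-like cells. On the TMM scale the log2 ratio of the ribosomal protein sum became -1.35 at E85, -1.79 at E105 and -0.38 in oocyte-like cells. The direction was the same on either scale, and ratios below are on the scale of total UMIs unless TMM is named.

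The mitochondrial share of UMIs was higher in male germ-like than in somatic cells, and lower in oocyte-like cells. It was 8.0% and 8.23% in male germ-like cells at E85 and E105, against 4.48% and 4.04% in somatic cells, and 2.58% in oocyte-like against 3.79% in somatic cells. Within every class shown in the plot by mitochondrial share, cells with over 10% mitochondrial UMIs had the lowest ribosomal protein share. At over 5 to 10% mitochondrial UMIs, male germ-like cells had 10.3% (167 cells) and Sertoli-like cells 12.8% (578 cells) at E85. At E105 the values were 7.68% (59 cells) and 11.2% (331 cells), so the gap was present within that range in both libraries. With over 10% mitochondrial UMIs the gap was smaller, at 7.499% (46 cells) and 7.933% (40 cells) at E85. At E105 it was 4.94% (23 cells) and 6.05% (84 cells). In the same range oocyte-like cells had 6.295% (5 cells) and pregranulosa-like cells 5.99% (17 cells), the opposite order. Of male germ-like cells at E105, 15 of 85 had under 4% ribosomal protein UMIs, with a median mitochondrial share of 15.1%, against 15 of 228 at E85 (17.1%). Among cells with at most 5% mitochondrial UMIs, a limit chosen after seeing the data, oocyte-like cells had 10.3% (78 cells) and somatic cells of the same library 12.7% (2571 cells). Whether mitochondrial share sets part of the difference between classes was not tested beyond these ranges.

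**Figure D2:**
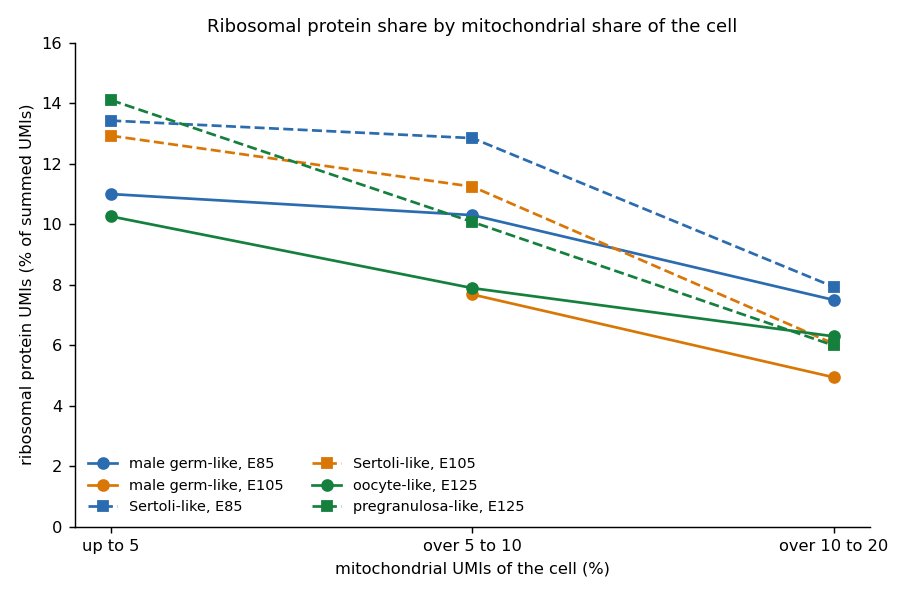
Ribosomal protein share of summed UMIs (vertical axis, %) in cells grouped by their mitochondrial share (horizontal axis, %), for germ-line classes (solid lines) and their supporting somatic classes (dashed lines), coloured by library. Male germ-like cells lie below Sertoli-like cells of their library in each range drawn for both (7.68% against 11.2% at E105 in the middle range). Oocyte-like cells lie below pregranulosa-like cells in the first and middle ranges and above them in the last (6.295% against 5.99%). A point is drawn where a range holds at least 5 cells, so male germ-like cells at E105 have no point in the first range.

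Of the 30 genes, 29 had at least 20 UMIs over both sums and were compared one by one, and RPL10L did not reach that number. A gene is called higher or lower here when its CPM ratio is at least 1.5-fold. At E85, 3 genes were higher and 14 lower in male germ-like than in somatic cells, where 52.5% and 22.2% of all features tested were higher and lower. At E105 the counts were 3 and 22, against 51.2% and 24.2% of all features. The lower calls thus covered 48.3% and 75.9% of the genes compared, above the background share in both libraries. In oocyte-like cells 1 gene was higher and 9 lower, where 37.4% and 40.5% of all features were called. The 31.0% of genes called lower there is below the background share and is no result about these genes. The median log2 ratio of the 29 genes was -0.52 at E85, -0.85 at E105 and -0.32 in oocyte-like cells, beside medians over all features of 0.69, 0.64 and -0.10. On the TMM scale, 0 genes were higher and 25 lower at E85, where 30.6% and 41.8% of all features were called. At E105 the TMM counts were 1 and 26, against 26.9% and 45.3%. Against the supporting cells alone the counts for male germ-like cells were close to those against all somatic cells. Sertoli-like cells gave most of the somatic UMIs in both libraries (21735555 of 26976885 at E85 and 16742060 of 25461095 at E105). Sertoli-like cells gave 3 higher (59.3% of all features) and 14 lower (18.4%) at E85 and 3 higher (60.2% of all features) and 21 lower (18.4%) at E105, and pregranulosa-like cells gave 1 higher (44.3% of all features) and 12 lower (32.4%) for oocyte-like cells. The 41.4% called lower against pregranulosa-like cells lies above its background share, unlike the 31.0% against all somatic cells. With TMM factors 17 of 29 genes were lower against pregranulosa-like cells (35.1% of all features) and 10 of 29 against all somatic cells (42.1%). The side of the background thus depended on the cells set against oocyte-like cells.

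The genes did not move as a block. Their log2 ratios spanned -2.16 to 1.39 at E85, -3.20 to 1.74 at E105 and -1.60 to 1.61 in oocyte-like cells. The low ends at E85 and E105 were those of the paralog RPL3L, with 10 and 2 UMIs in male germ-like cells. The next lowest genes were RPL36A-HNRNPH2 at E85 (-2.10) and RPL22 at E105 (-2.27). The order of the genes was much the same in the male germ-like cells of both libraries, with a Pearson r of 0.949 and a Spearman rho of 0.949 over 29 genes. It was less alike between oocyte-like cells and male germ-like cells, with r of 0.645 (E85) and 0.645 (E105) and rho of 0.507 and 0.475. These libraries share no cells, but genes are not independent replicates and the values are a description. Between E105 and E85 the log2 ratios had standard deviations over genes of 0.103 (mural-like) to 0.215 (lymphoid-like) within the 6 somatic classes and 0.359 in male germ-like cells, against 0.897, 1.05 and 0.647 for germ-line against somatic cells at E85, E105 and in the library labelled E125. The gene sets differ, since RPL3L enters the germ-line against somatic values but between E105 and E85 had enough UMIs only in Sertoli-like cells.

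**Figure D3:**
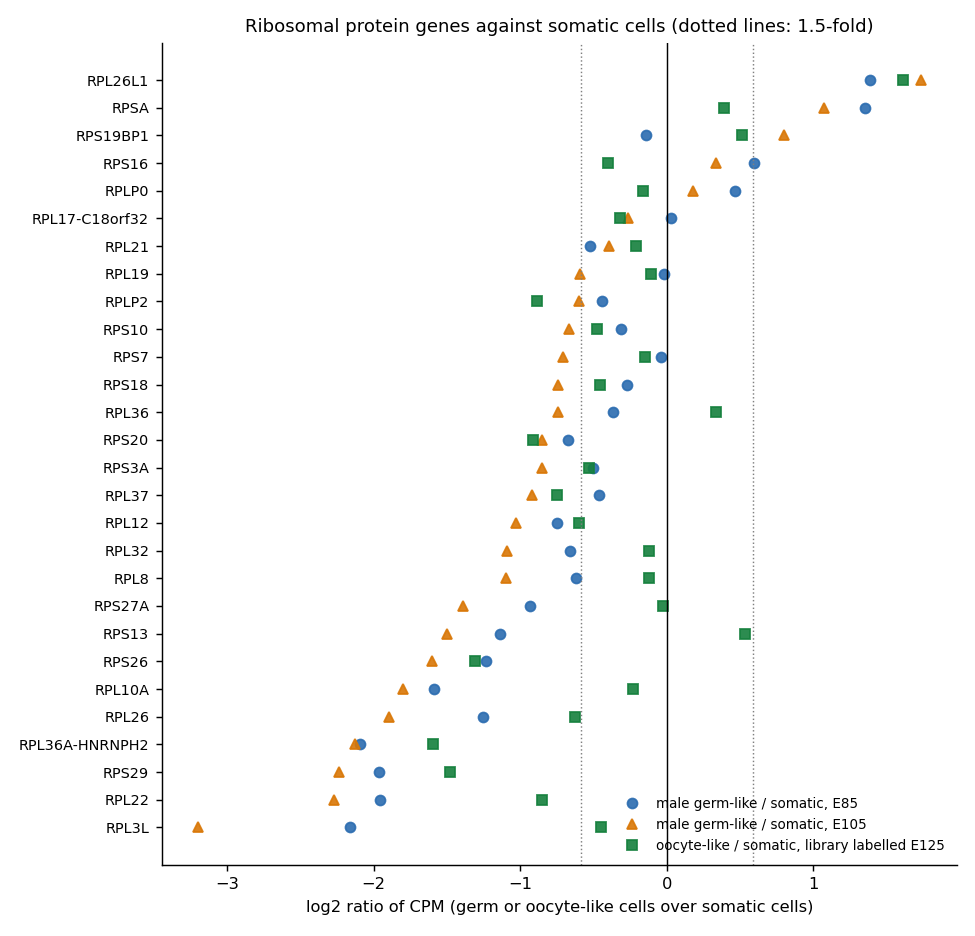
log2 ratio of CPM in germ-line over somatic cells for 28 of the 29 ribosomal protein genes compared, ordered by the E105 value, with 1 symbol per library and dotted lines at 1.5-fold. RPL26L1 is the highest gene in all comparisons (1.39, 1.74 and 1.61), and RPS13, RPL10A and RPS27A stand apart in oocyte-like cells from their place in male germ-like cells.

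Among the small subunit genes, RPSA had the opposite direction to most. RPSA encodes the protein SA of the small subunit, also known as the laminin receptor. It stood at 7614 and 6409.5 CPM in male germ-like cells at E85 and E105, against 2816 and 2769 CPM in Sertoli-like cells, and no other class of these libraries passed 4502 CPM. Against all somatic cells its ratio was 2.55 (2.52 to 2.59, log2 1.35) at E85 and 2.11 (2.06 to 2.15, log2 1.07) at E105, which is 0.40 and 0.06 in log2 on the TMM scale, and -0.12 against Sertoli-like cells of E105 on that scale. In oocyte-like cells RPSA was at 2634 CPM and 2013 CPM in somatic cells, a log2 ratio of 0.39. RPSA made up 7.63% and 8.84% of the ribosomal protein UMIs of male germ-like cells and 2.13% and 2.21% of those of Sertoli-like cells. RPS16, which lies on the head of the small subunit, was higher in male germ-like cells at E85 and under 1.5-fold at E105, with log2 ratios of 0.59 and 0.34 at E85 and E105 that turned to -0.36 and -0.68 on the TMM scale, and was at -0.40 in oocyte-like cells.

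The small subunit genes that stood lowest were RPS29 and RPS26. RPS29, a small zinc-binding protein, was at 86.1 and 76.6 CPM in male germ-like cells and 123 CPM in oocyte-like cells, and between 235 and 423 CPM in all 19 somatic class and library sums, so the groups did not overlap. RPS26, which sits at the exit of the messenger RNA channel, was at 1425, 1079 and 946 CPM in the same 3 germ-line sums, below all somatic sums (1514 to 4603 CPM). The log2 ratios of RPS26 against somatic cells were -1.24, -1.60 and -1.31. How many of all features separated germ-line from somatic sums in this way was not counted, for these genes or for RPL22, RPL26 and RPL26L1 below. RPS27A, made as a fusion with ubiquitin, was lower in male germ-like cells (-0.94 and -1.39) and at -0.03 in oocyte-like cells.

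RPS13 lay at opposite ends in oocyte-like and male germ-like cells. It encodes a protein of the small subunit's body. Its level was 9601 CPM in oocyte-like cells, the highest of all 22 sums, and 2776 and 2037 CPM in male germ-like cells, the lowest. The ratio to somatic cells was 1.45 (1.44 to 1.46, log2 0.53) in oocyte-like cells and 0.455 and 0.353 in male germ-like cells at E85 and E105. Somatic sums lay between 4421 and 7887 CPM in all libraries. RPL10A of the large subunit showed a gap of the same direction, with 4637 CPM in oocyte-like cells and 1374 and 1077 CPM in male germ-like cells. The difference between oocyte-like and male germ-like cells was not tested, since stage and library change with the cell type.

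Among the large subunit genes, RPL22 was the lowest core gene in male germ-like cells. RPL22 is an RNA-binding protein at the surface of the large subunit. It stood at 739.8 and 583 CPM in male germ-like cells and 1359 CPM in oocyte-like cells, with all somatic sums between 2057 and 3852 CPM. Its ratios were 0.258 (0.249 to 0.267, log2 -1.95), 0.207 (0.195 to 0.220, log2 -2.27) and 0.554 (0.544 to 0.564, log2 -0.85). RPL36A-HNRNPH2, the model that joins RPL36A to its neighbour, gave -2.10, -2.13 and -1.60 in log2, and the share of these UMIs that belongs to either gene cannot be told. RPL10A, the protein of the L1 stalk, gave -1.59, -1.80 and -0.23.

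RPLP0 and RPLP2 are proteins of the acidic stalk, which binds elongation factors. RPLP0, the base of the stalk, was at 11364 and 9936 CPM in male germ-like cells at E85 and E105, against 8769.5 and 9983 CPM in Sertoli-like cells, and at 4858 and 4783 CPM in stromal-like cells. Against all somatic cells its log2 ratios were 0.47 and 0.18, but -0.48 and -0.84 on the TMM scale, and -0.16 in oocyte-like cells. RPLP2, which joins RPLP0 as an acidic dimer with RPLP1, had log2 ratios of -0.44, -0.60 and -0.89.

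RPL26L1, a paralog of RPL26 that differs from it by few residues, had the highest ratio of the 29 genes in all 3 germ-line comparisons. It stood at 801 and 774 CPM in male germ-like cells and 825 CPM in oocyte-like cells, and between 102 and 445 CPM in somatic sums. The ratios to somatic cells were 2.62 (2.52 to 2.72, log2 1.39), 3.33 (3.14 to 3.53, log2 1.74) and 3.05 (2.95 to 3.16, log2 1.61), and on the TMM scale the log2 values were 0.44, 0.72 and 1.52. RPL26 itself was lower in the same cells, at 2666, 1619.7 and 3822 CPM, with somatic sums of 4994 to 7124 CPM. Of the UMIs of both genes, RPL26L1 took 23.1% (interval 22.5 to 23.8) and 32.3% (30.9 to 33.8) in male germ-like cells and 17.8% (17.4 to 18.1) in oocyte-like cells. In somatic classes the share ran from 1.71% (macrophage-like, E105) to 6.35% (mesothelial-like, library labelled E125), with no overlap. How reads of such similar genes are divided is uncertain, and the same division was applied to all cells.

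**Figure D4:**
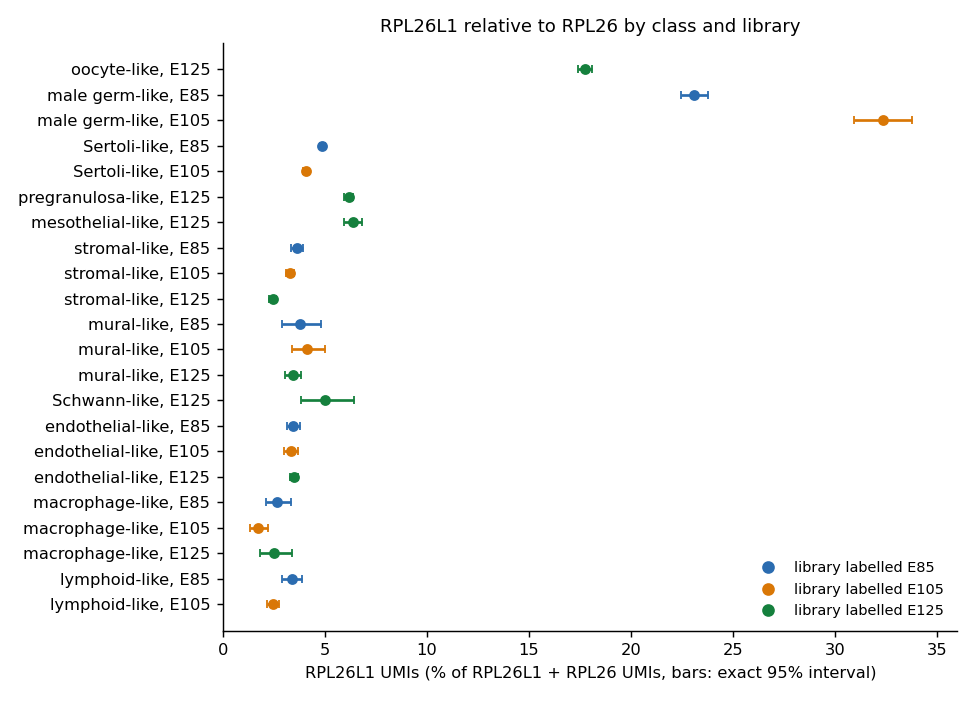
RPL26L1 UMIs as a percentage of RPL26L1 and RPL26 UMIs in each class and library, with exact 95% intervals for counting error. The 3 germ-line sums lie at 17.8% to 32.3%, above all somatic sums (at most 6.35%).

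The other paralogs were scarce. RPL10L, the germ-line copy of RPL10, gave 5 and 2 UMIs in male germ-like cells and 1 in oocyte-like cells, with 0 in the named somatic cells of every library, out of 6, 2 and 1 UMIs in all cells kept. Too few UMIs were seen to compare it between stages. RPL3L, the muscle paralog of RPL3, reached 12.3 and 19.4 CPM in Sertoli-like cells, 10.2 CPM in pregranulosa-like and 30.0 CPM in mesothelial-like cells. Elsewhere it stayed at or below 4.48 CPM, the oocyte-like value, and male germ-like cells had 10 and 2 UMIs. In Sertoli-like cells RPL3L was the 1 gene of the 29 past 1.5-fold between E105 and E85, with a ratio of 1.58 (1.34 to 1.87, log2 0.66), where 13.8% of all features were higher and 4.48% lower. With TMM factors or a fold of 2 this call was lost and 0 genes were higher. RPS19BP1 is no ribosomal protein but a SIRT1 partner named for binding RPS19, and was kept because the symbol rule holds it. It stood at 8.59 CPM (40 UMIs) and 19.3 CPM (34 UMIs) in male germ-like cells.

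Between E85 and E105 the ribosomal protein share of male germ-like cells went from 9.97% to 7.25%, a ratio of 0.727 (0.723 to 0.732, log2 -0.46). Sertoli-like cells went from 13.2% to 12.5%, a ratio of 0.946, and stromal-like, mural-like, endothelial-like and macrophage-like cells had ratios of 0.899, 0.863, 0.900 and 0.901. Lymphoid-like cells went the other way, from 15.1% to 16.3%, a ratio of 1.08. A lower value at E105 was thus shared by 6 of 7 classes and was largest in male germ-like cells, but with 1 library each the difference between classes was not tested. Of the genes compared in male germ-like cells, 1 was higher and 6 lower at E105, where 20.7% and 4.64% of all features were called. With TMM factors 19 of 28 were lower (10.0% of all features), and 0 were lower with a fold of 2. The higher gene was RPS19BP1, with a ratio of 2.25 (1.38 to 3.64, log2 1.17). Among the lower genes were RPL26 (0.608), RPS10 (0.629), RPS7 (0.638) and RPS18 (0.644). RPL26L1 was at 0.967, with an interval of 0.908 to 1.03 that includes no change. With the male germ-like cells of each library divided into 3 groups of equal size by depth, the shallowest group had 8.19% at E85 and 4.86% at E105, and the deepest 10.3% and 7.74%, so both ends of the depth range were lower at E105. In the somatic classes few genes passed 1.5-fold between E105 and E85. Stromal-like cells had 0 higher (14.7% of all features) and 0 lower (6.03%). Mural-like cells had 0 higher (16.3% of all features) and 0 lower (7.98%) and endothelial-like cells 0 higher (15% of all features) and 0 lower (4.47%). Macrophage-like cells had 0 higher (15.5% of all features) and 1 lower (10.2%) and lymphoid-like cells 0 higher (11.9% of all features) and 1 lower (13.2%); the lower genes were RPL26L1 (-0.82 in log2) and RPS19BP1 (-0.72 in log2).

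Over all classes the genes had common extremes. Of 27 ribosomal protein genes with a median of at least 100 CPM over the 22 sums, 18 (66.7%) had their lowest level in male germ-like cells at E105, against 12.4% of the 1008 features of that abundance. In lymphoid-like cells at E105, 11 of the 27 (40.7%) had their highest level, against 6.25% of those features. The summed share of the ribosomal protein genes was lowest and highest in the same sums, so these counts largely restate it and are not separate support. The genes of this set with the smallest range over classes were RPS18 (1.99-fold between the highest and the lowest sum), RPL36 (2.02-fold) and RPS10 (2.10-fold). The largest ranges were those of RPL36A-HNRNPH2 (9.46-fold), RPL26L1 (8.13-fold) and RPL22 (6.61-fold). For each of these genes the lowest and highest sums came from different libraries, so the ranges hold differences between libraries as well as between classes.

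Somatic classes were also compared by clusters that had been computed without ribosomal protein genes. Clusters led by genes of cell division had a lower share than the largest clusters of their class. A Sertoli-like cluster with AURKB and CCNB2 among its leading genes had 11.5% at E85 and 10.8% at E105, against 13.5% and 13.0% in the largest Sertoli-like cluster. A stromal-like cluster led by TOP2A and CENPF had 8.53%, 7.40% and 11.1% in the libraries labelled E85, E105 and E125, and one led by histone genes 9.43% and 8.93% at E85 and E105. One led by replication genes (MCM4, PCNA) had 11.0% and 10.6%, in 37 and 38 cells. The largest stromal-like clusters lay between 11.8% and 13.6%. The median mitochondrial share of the dividing clusters was 2.86% to 4.34%, and that of the large Sertoli-like and stromal-like clusters set beside them 2.65% to 4.49%. A Sertoli-like cluster led by AMH, with no division genes among its leading genes and a median mitochondrial share of 15.4% and 14.4%, had the lowest shares of these clusters, 5.41% and 3.92%. The lymphoid class held a cluster of T and natural killer genes (CTSW, LCK) at 16%, 17.1% and 17.1%, and one led by B-lineage genes (VPREB1, PAX5) at 13.4% and 12.1%. The first was higher and the second lower at E105 than at E85.

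Some genes differed between the library labelled E125 and the others in every somatic class they share. In stromal-like, mural-like, endothelial-like and macrophage-like cells, the library labelled E125 was set against E85 and against E105, which gives 8 ratios that share that library. RPL17-C18orf32 was higher in 8 of 8, by 1.71 to 2.18 in log2. RPL21 was higher in 8 of 8, by 1.32 to 1.79, and RPS16 in 8 of 8, by 0.71 to 1.27. RPL36A-HNRNPH2 was higher in 4 of 8, at 0.36 to 0.86. RPSA was lower in 8 of 8, at -1.11 to -0.64, and RPL37 in 7 of 8, at -1.03 to -0.50. Of the genes compared, stromal-like cells had 4 higher (26.5% of all features) and 4 lower (27.7%) against E85 and 5 higher (21.4% of all features) and 2 lower (29.4%) against E105. Mural-like cells had 3 higher (27.9% of all features) and 3 lower (24.1%) against E85 and 4 higher (22.7% of all features) and 2 lower (26.9%) against E105. Endothelial-like cells had 3 higher (30.2% of all features) and 5 lower (16.3%) against E85 and 3 higher (23.4% of all features) and 4 lower (20.9%) against E105. Macrophage-like cells had 3 higher (28.2% of all features) and 2 lower (16.3%) against E85 and 4 higher (24.2% of all features) and 2 lower (19.5%) against E105. The percentage of genes called higher was below that of all features in each of these comparisons. The same held for lower genes, except in endothelial-like cells against E85 (17.9% against 16.3%). RPL17-C18orf32, RPL21 and RPS16 were among the higher genes in each of these comparisons and RPSA among the lower. How many of all features passed in all 8 ratios was not counted, so this pattern is not shown to be particular to these genes. Most stromal-like cells of that library fell into clusters that hold none from E85 or E105, so cell subtype differs too. Between E105 and E85 the same genes differed by at most 1.5-fold in the somatic classes.

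RPL21 is an example of this difference between libraries. Its level was 871 and 738 CPM in stromal-like cells of E85 and E105 and 2545 CPM in those of the library labelled E125, and 1084 and 931 CPM in Sertoli-like against 2845 CPM in pregranulosa-like cells. Oocyte-like cells had 2065 CPM and male germ-like cells 721 and 661 CPM. The germ-line levels of RPL21 followed the library of the cells in the same direction as the somatic levels. Those of RPS16 did not against E85, with 2648 CPM in oocyte-like cells and 2881 and 1865 CPM in male germ-like cells at E85 and E105. Levels of RPL21, RPL17-C18orf32, RPS16, RPSA and RPL37 are read only within a library. Stage, fetus, tissue and library cannot be told apart for them.

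**Figure D5:**
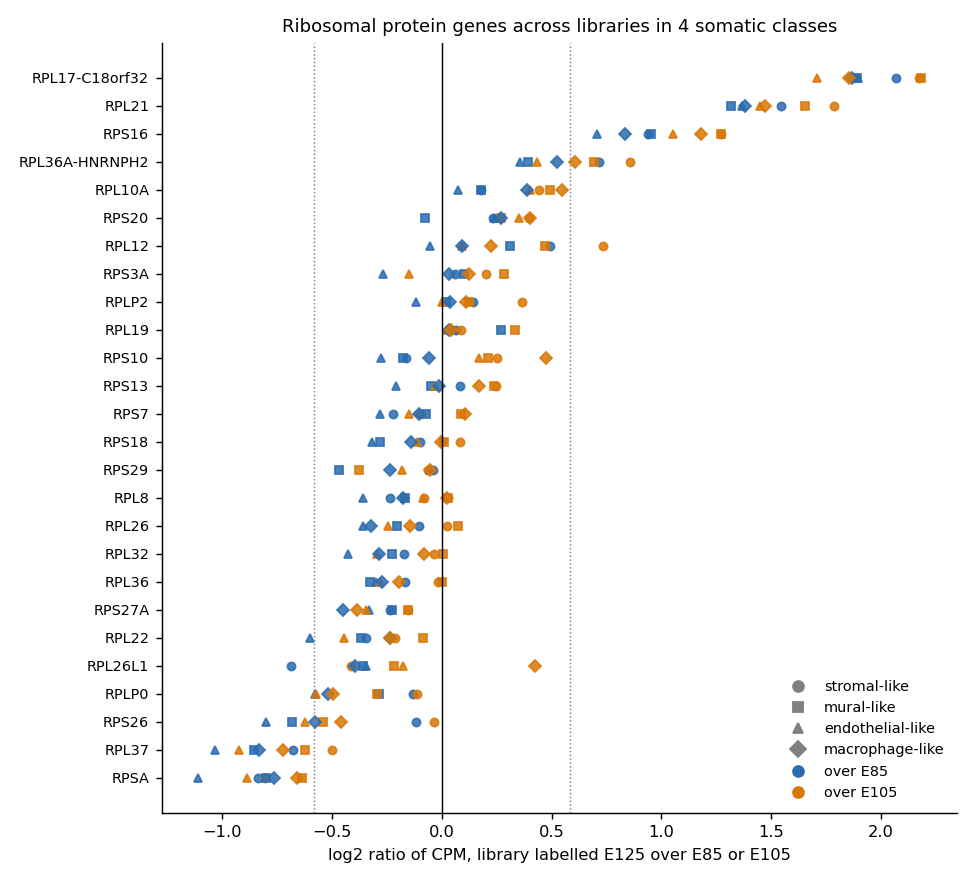
log2 ratio of CPM in the library labelled E125 over E85 (blue) and over E105 (orange) for ribosomal protein genes in 4 somatic classes (symbols), with dotted lines at 1.5-fold. RPL17-C18orf32, RPL21 and RPS16 lie beyond 1.5-fold in all 8 ratios and RPSA below it in all 8 (from -1.11 to -0.64).

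Ribosome assembly factors process ribosomal RNA and build the subunits in the nucleolus, and numbered 26 higher and 1 lower of 40 tested at E85, 32 higher and 1 lower of 40 at E105 and 18 higher and 4 lower of 40 in oocyte-like cells, against somatic cells. Of all features tested, the shares were 52.5% higher and 22.2% lower at E85, 51.2% and 24.2% at E105, and 37.4% and 40.5% in oocyte-like cells. The factors' median log2 ratio was 1.00, 1.23 and 0.42, or 0.05, 0.21 and 0.33 on the TMM scale. UTP4 and HEATR1, parts of the small subunit processome, had ratios of 6.05 and 5.26 at E85 and 6.97 and 6.09 at E105. BOP1, of the complex that matures the large subunit, had 5.39 and 5.92. In oocyte-like cells NAT10, the RNA cytidine acetyltransferase, stood at 602 CPM against 16.4 CPM, a ratio of 36.6, while WDR12, a partner of BOP1, was at 0.168.

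Mitochondrial ribosomal proteins build a separate ribosome in the mitochondrion. All 57 listed genes found were tested. In oocyte-like cells they numbered 41 higher and 3 lower of 57, where 37.4% and 40.5% of all features were called, with a median log2 ratio of 1.05 (0.96 on the TMM scale), against -0.10 for all features. MRPL38 and MRPL42 stood at 89.3 against 6.88 CPM and 185 against 15.2 CPM. In male germ-like cells the counts were 31 higher and 3 lower of 57 at E85 and 32 higher and 5 lower of 57 at E105, close to the 52.5% and 51.2% of all features called higher, with medians of 0.67 and 0.74, near those of all features (0.69 and 0.64), and of -0.28 and -0.28 on the TMM scale. As a share of UMIs they took 0.757% in oocyte-like cells and 0.276% in somatic cells of that library, and 0.518% and 0.387% at E85 and 0.524% and 0.332% at E105. By share of total UMIs, mitochondrial ribosomal protein genes thus lay above and cytosolic ones below the somatic cells in all 3 germ-line groups. In male germ-like cells the mitochondrial genes were near the background of all features, so their side there is no result about these genes. On the TMM scale they lay on the same side as the cytosolic genes in male germ-like cells.

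Of the elongation factors, EEF1B2 and EEF1D, which recharge EEF1A with GTP, were lower in male germ-like cells, with log2 ratios of -1.09 and -0.92 at E85 and -1.35 and -0.77 at E105. In oocyte-like cells EEF1B2 was at -0.61 and EEF1D at 0.36. EEF2, the translocase, was at 0.77, 0.32 and -0.24, and its sign in male germ-like cells turned on the TMM scale (-0.18 and -0.70). The list as a whole had 3 higher and 2 lower of 5 at E85, 1 higher and 2 lower of 4 at E105 and 1 higher and 1 lower of 4 in oocyte-like cells, too few to set beside the shares of all features (52.5% higher and 22.2% lower at E85, 51.2% and 24.2% at E105, and 37.4% and 40.5% in oocyte-like cells). Initiation factors numbered 9 higher and 0 lower of 17 at E85, 9 higher and 0 lower of 17 at E105 and 7 higher and 4 lower of 17 in oocyte-like cells, so that the higher counts in male germ-like cells were near the share of all features, with medians of 0.63, 0.79 and 0.18 that turned to -0.32 and -0.23 in male germ-like cells on the TMM scale. EIF4G3, a scaffold of the cap-binding complex, had ratios of 4.19 and 4.00 in male germ-like cells, and EIF5, which triggers GTP hydrolysis at the start codon, 3.04 and 4.61. EIF1, which guards start codon choice, stood at 736 CPM in oocyte-like cells against 241 CPM, and the helicase EIF4A2 at 72.3 against 286 CPM.

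Other messages that carry the terminal oligopyrimidine tract differed in both directions. Of 15 listed, 6 were found and tested, with 1 higher and 2 lower of 6 at E85, 1 higher and 2 lower of 6 at E105 and 2 higher and 3 lower of 6 in oocyte-like cells, beside 52.5% higher and 22.2% lower at E85, 51.2% and 24.2% at E105, and 37.4% and 40.5% in oocyte-like cells for all features. Their median log2 ratio was 0.06, 0.07 and -0.13, and -0.89 and -0.95 on the TMM scale in male germ-like cells. The intermediate filament gene VIM, a mark of mesenchymal cells, was lower in all 3 germ-line groups, with ratios of 0.238, 0.214 and 0.0699. EIF3E, a subunit of initiation factor EIF3, was lower in all 3 (0.663, 0.655 and 0.445). EIF3L, another subunit, was higher, with 2.07, 1.97 and 1.64, although at E105 its log2 value on the TMM scale was -0.04.

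Regulators of ribosomal protein synthesis differed in both directions. MYC and MYCN, which drive transcription of ribosomal genes, were lower in every germ-line group. MYC stood at 3.22 CPM in male germ-like against 14.9 CPM in somatic cells at E85, at 5.11 against 25.8 CPM at E105, and at 3.99 against 86.5 CPM in the library labelled E125. MYCN had ratios of 0.234, 0.292 and 0.0539. TSC2, which restrains TOR signalling, was higher in every germ-line group, with ratios of 9.05, 6.34 and 6.37, and its partner TSC1 had 4.48 and 4.61 in male germ-like cells. RPTOR, a core part of the TOR complex, had 5.45 in oocyte-like cells. The list had 7 higher and 4 lower of 18 at E85, 11 higher and 3 lower of 19 at E105 and 7 higher and 8 lower of 20 in oocyte-like cells, beside 52.5% higher and 22.2% lower at E85, 51.2% and 24.2% at E105, and 37.4% and 40.5% in oocyte-like cells for all features.

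A list of genes called stored message proteins of oocytes was also measured, and not all of them package messages. Of the list, 8 higher and 4 lower of 14 tested were called in oocyte-like cells (37.4% and 40.5% of all features), with ZAR1 at 120.4 against 0.450 CPM and OOEP at 483 against 3.87 CPM. ZAR1 was also among the markers that defined these cells. In male germ-like cells DDX6, a helicase of messenger RNA storage granules, had ratios of 4.36 and 3.43, and 6 higher and 0 lower of 8 and 4 higher and 0 lower of 8 tested were called at E85 and E105, where 52.5% and 51.2% of all features were higher. The list medians there were 0.88 and 0.60, and -0.07 and -0.41 on the TMM scale.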

How the data were processed

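The measure was droplet single-cell RNA in 3 libraries, 1 per stage, and nothing says how many fetuses each holds. The deposited matrices hold raw UMI counts, 1 row per feature and 1 column per barcode. Cell Ranger made them: the submitters' processing notes name version 3.1, while 6.0.0 stands in the matrices per the file headers. No genome build is given in the sources used here. Total counts were 45339231, 40741902 and 49692252 UMIs in 7478, 8520 and 8346 barcodes, which limits the precision only for genes of a few UMIs.

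Genes were matched by the symbols the files pair with feature IDs. Of the 30 members 28 are also in the reference gene table (ARS1.2 is named there, not in the files), so no coordinates are given. Members and lists were chosen with earlier results of these data known. Barcodes under 1000 UMIs or under 500 genes, or with over 20% of their UMIs on 13 mitochondrial genes, were dropped. Each cell took the class of highest mean marker z-score if it was at least 0.5, led by 0.3, and at least 3 markers (5 for male germ and oocyte) were detected; these limits were set after seeing the data. Mural-like cells were split between mural and stromal clusters. No doublet caller was used in the main values, because Scrublet called 197, 149 and 0 barcodes, and cells whose best class led the next by under 0.3 were left out. Classes of under 50 cells in a library (Leydig-like cells in all 3) are not given.

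The UMIs of all cells of a class in a library were added up and expressed as a share or as CPM. Shares have Clopper-Pearson intervals, levels Poisson intervals, and ratios the exact binomial split of both sums, at 95%. Log2 ratios add 0.5 UMI. A feature was compared with at least 20 UMIs over both sums and called at 1.5-fold. The genes named are the 5 highest and 5 lowest members of a comparison with at least 100 UMIs, all paralogs with their partners, RPLP0, RPLP2, RPSA and RPS27A, and up to 4 genes of each list; members named outside it were chosen after their values were seen. TMM and median-of-ratios factors were computed as alternatives in Python 3.11.15 with numpy 2.4.6, scipy 1.17.1 and scanpy 1.11.5. The ratio step was tested on simulated data. Values of 1 member and of 1 related gene are not reported here one by one.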

Additional observations from a re-analysis of the deposited data

Results flagged for a closer look

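These 4 results were set apart because classes of cells moved in opposite directions under the same contrast, and in none of them was the difference tested. RPS19BP1 had a log2 ratio of 1.17 between E105 and E85 in male germ-like cells (34 and 40 UMIs) and of -0.72 in lymphoid-like cells (23 and 20 UMIs), where the ratio's interval, 0.319 to 1.17, includes no change. The ribosomal protein share of lymphoid-like cells was higher at E105 than at E85 by 0.113 in log2, while 6 other classes were lower. The share of stromal-like cells was higher in the library labelled E125 than at E85 by 0.0090 in log2, while mural-like, endothelial-like and macrophage-like cells were lower. The share of endothelial-like cells was lower there than at E105 (log2 -0.093), while stromal-like, mural-like and macrophage-like cells were higher.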

How the results depend on the processing

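The direction of the ratios for germ-line against somatic cells, and of male germ-like cells at E105 against E85, was the same in all alternatives run; the limits of 5% mitochondrial and of 10000 UMIs were added after seeing the data, and fewer than 50 male germ-like cells met the first. For oocyte-like against somatic (main value -0.29), the log2 ratio of shares was -0.30 with clusters in place of gates, -0.26 with a stricter gate, -0.30 with at least 2000 UMIs and at most 10% mitochondrial UMIs, -0.31 with at most 5% mitochondrial UMIs, -0.31 with at least 10000 UMIs, -0.30 with no mitochondrial UMIs in the total, -0.39 with a total of features with a symbol, -0.30 with means of per-cell shares, -0.28 with cells thinned to 1000 UMIs, -0.30 with no paralogs, -0.30 with no RPL32, the gene with most UMIs, -0.21 with equal weight of somatic classes, -0.38 with TMM factors and -0.31 with median-of-ratios factors. For male germ-like against somatic at E85 (main value -0.40), the log2 ratio of shares was -0.41 with clusters in place of gates, -0.35 with at least 2000 UMIs and at most 10% mitochondrial UMIs, -0.39 with at least 10000 UMIs, -0.34 with no mitochondrial UMIs in the total, -0.69 with a total of features with a symbol, -0.43 with means of per-cell shares, -0.43 with cells thinned to 1000 UMIs, -0.41 with no paralogs, -0.38 with no RPL32, the gene with most UMIs, -0.35 with equal weight of somatic classes, -1.35 with TMM factors and -1.29 with median-of-ratios factors. For male germ-like against somatic at E105 (main value -0.77), the log2 ratio of shares was -0.80 with clusters in place of gates, -0.71 with at least 2000 UMIs and at most 10% mitochondrial UMIs, -0.76 with removal of the 6% of highest doublet scores, -0.71 with no mitochondrial UMIs in the total, -1.08 with a total of features with a symbol, -0.84 with means of per-cell shares, -0.83 with cells thinned to 1000 UMIs, -0.78 with no paralogs, -0.75 with no RPL32, the gene with most UMIs, -0.72 with equal weight of somatic classes, -1.79 with TMM factors and -1.71 with median-of-ratios factors. For male germ-like at E105 against E85 (main value -0.46), the log2 ratio of shares was -0.45 with a stricter gate, -0.43 with at least 2000 UMIs and at most 10% mitochondrial UMIs, -0.45 with removal of the 6% of highest doublet scores, -0.44 with at least 10000 UMIs, -0.52 with a total of features with a symbol, -0.53 with means of per-cell shares, -0.53 with cells thinned to 1000 UMIs, -0.70 with TMM factors and -0.71 with median-of-ratios factors. At a fold of 2, the lower genes in male germ-like cells numbered 8 of 29 at E85 (16.6% of all features) and 13 of 29 at E105 (18.8%). In oocyte-like cells they numbered 3 of 29, where 32.5% of all features were lower, so that count is no result about these genes. With TMM factors 25 were lower and 0 higher at E85 (41.8% and 30.6% of all features) and 26 lower and 1 higher at E105 (45.3% and 26.9%). The sign turned for stromal-like cells of the library labelled E125 against E85 with clusters (-0.029), a stricter gate (-0.039), features with a symbol (-0.037), means of cells (-0.056) and thinned cells (-0.056), where the main value was 0.0090. It also turned for mural-like cells with TMM and median-of-ratios factors (0.19 and 0.18, main -0.074), for macrophage-like cells against E85 with clusters (0.00319, main -0.096) and against E105 with TMM and median-of-ratios factors (-0.12 and -0.063, main 0.054). TMM factors turned the list medians to -0.031 for elongation factors in oocyte-like cells, and in male germ-like cells at E85 to -0.18 for elongation factors. At E85 and E105 they turned them to -0.89 and -0.95 for other oligopyrimidine messages, -0.32 and -0.23 for initiation factors, -0.88 and -0.24 for TOR control, -0.073 and -0.41 for stored message proteins and -0.28 and -0.28 for mitochondrial ribosomal proteins. The cause of these turns was not tested. No paired analysis was possible because each stage has 1 library. Shares rest on 30 of the ribosomal protein genes, and counting intervals do not give the error of a stage.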
